A study of Mus musculus with 21 samples.

Results

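The genes whose expression differed in the same direction in both splenic dendritic cell subsets of mice injected with Flt3L melanoma, relative to wild-type mice, are described here. The comparison used 12 of the 21 Affymetrix arrays of the study: 6 of dendritic cells from injected mice and 6 of dendritic cells from wild-type mice, with the subset as a block. The study sorted dendritic cells and the B, CD4 T and CD8 T lymphocytes from mouse spleen, to find the molecule bound by the 33D1 antibody and to compare antigen presentation between the subsets. Each subset and treatment had 3 arrays.

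All mice were C57BL/6. The Flt3L groups came from animals that received Flt3L melanoma and were killed on days 10 to 12. The wild-type groups have no injection recorded, so the effect of the ligand and that of the tumour cannot be told apart. Each array of the Flt3L groups held cells of 20 mice and each wild-type array cells of 40 to 80 mice, so pool size also differed with treatment. Whether pools were made from separate animals is not given in the sources used here, so the p-values cover the spread between arrays of a group, part of which may be technical. In both treatments the cells were purified with the 33D1 antibody, which binds CD8-negative dendritic cells, or with the DEC205 antibody, which binds the CD8-positive ones.

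Flt3 is a receptor tyrosine kinase carried by dendritic cell progenitors and by mature dendritic cells. Its ligand, Flt3L, drives the production of dendritic cells, and mice that receive the ligand or a tumour secreting it build up large numbers of them in the spleen. The 33D1 and DEC205 subsets share this dependence on Flt3 but use different transcription factors and present antigen in different ways.

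Values are the deposited signals on a linear scale, and where a sentence sets 3 signals against 3 the wild-type arrays come first. Differences are Flt3L minus wild-type on the log2(signal + 48.6) scale with their standard errors. That offset understates the change of genes with low signal. The threshold for a call was an adjusted p of 0.05 (limma, two-sided, Benjamini-Hochberg). It was counted as moved in both subsets when the main effect was called and the difference within the 33D1 cells and within the DEC205 cells had the same sign, each with an unadjusted p under 0.05. The differences within 33D1 cells and within DEC205 cells use no array in common.

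The markers of the labelled cells were checked on each array. The dendritic cell gene Itgax, encoding CD11c, ranged from 8904 to 19355 over the 12 arrays, and Cd74, the MHC class II invariant chain, from 25691 to 43924. Ly75, which encodes DEC205, lay between 2112 and 3131 on the DEC205 arrays and between 117 and 219 on the 33D1 arrays. Cd8a, the CD8 alpha chain that defines the DEC205 subset, was 15806, 16334 and 15329 on the wild-type and 11916, 7460.5 and 8475 on the Flt3L DEC205 arrays, lower in Flt3L mice without overlap, and at most 489 on the 33D1 arrays. Its main effect was not called (difference -0.28 ± 0.29, adjusted p = 0.725). The T cell gene Cd3e and the B cell gene Cd79a stayed at or below 90.1 and 161.6. A pair of arrays stood out for transcripts of the other subset. Wild-type DEC205 replicate 3 had a Tgm2 signal of 1413 against 255 and 320 on the other wild-type DEC205 arrays. The Flt3L DEC205 arrays had 143, 113 and 140, and the wild-type 33D1 arrays at least 17268. Flt3L 33D1 replicate 3 had an Irf8 signal of 2407 against 341 and 371, where the DEC205 arrays had at least 21295. The main counts, and the adjusted p of several genes that lost their call, are also given without this pair of arrays. Leaving them out keeps the difference in Tgm2 between the remaining wild-type and the Flt3L DEC205 arrays. The part of 33D1 transcripts in the lower DEC205 signals of genes higher in 33D1 cells, such as Mmp12, Abcb1a and Jag1, was not tested. Array medians lay between 121.9 and 180.8, and arrays of one group correlated at 0.969 to 0.98 over probe sets.

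Of 18193 genes, 398 rose in both subsets and 169 fell in both. These are 2.19% and 0.929% of the genes tested, and the 567 together are 3.12%. The main effect alone called 441 genes higher and 204 lower, 2.42% and 1.12% of those tested and 3.55% together. No called gene had opposite signs in the 2 subsets. The additive model rarely calls such a gene, so this does not test whether the subsets agree. The remaining 78 called genes missed the unadjusted threshold in at least 1 subset. Differences were moderate: 42 genes that rose and 27 that fell differed by 2-fold or more, and the medians were 0.62 and -0.62 against -0.01 over all genes. For 334 of the genes that rose, all 3 Flt3L arrays lay above all 3 wild-type arrays in each subset, and for 137 of those that fell they lay below. Over all genes, 2.97% lay above in this way and 1.51% below. Median centring moved the balance of the main effect from 68.4% to 79.0% higher, with 334 genes called higher and 89 lower, and left 307 genes that rose and 78 that fell in both subsets. Without both mixed arrays the counts for both subsets were 325 and 91. Without wild-type 33D1 replicate 2 they were at their lowest over the arrays left out in turn, 281 and 98. The gene nearest to the threshold on the called side was Tifa (adjusted p = 0.0496, difference 0.33), which missed the condition on both subsets.

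**Figure D1:**
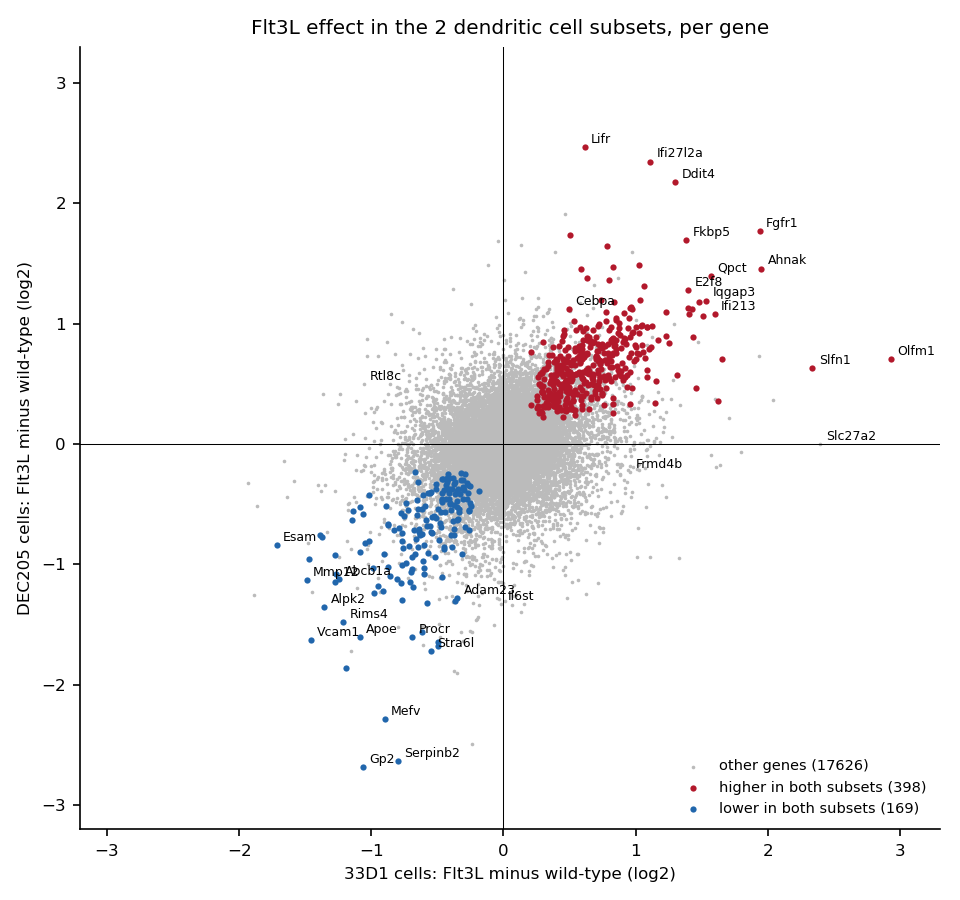
Each point is a gene, placed by its Flt3L minus wild-type difference in 33D1 cells (x axis, log2) and in DEC205 cells (y axis, log2), each from 3 against 3 arrays. The 398 genes that rose in both subsets (red) and the 169 that fell in both (blue) lie in opposite corners, with Fgfr1 near the diagonal, while Olfm1 and Lifr lie far to one side of it.

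Within each subset alone, 151 genes were called in the 33D1 cells (0.83%) and 275 in the DEC205 cells (1.51%). Of these, 137 of the 151 had the same sign in the DEC205 cells and 246 of the 275 had the same sign in the 33D1 cells. The 49 genes called in both, 32.5% of the first list and 17.8% of the second, all had the same sign. Across genes the differences of the 2 subsets correlated with r = 0.348, a description over genes, which are not independent replicates. The test of the difference between the subsets called 6 genes, 0.033%, and 1089 had an unadjusted p under 0.05. Of the 6, Olfm1 and Adam23 moved in both subsets, and the others were Slc27a2, Il6st, Frmd4b and Rtl8c. Without Flt3L 33D1 replicate 2 the 33D1 count was 51, and without Flt3L DEC205 replicate 2 the DEC205 count was 85.

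Flt3, the receptor of the ligand, was 4738, 5567 and 4494 on the wild-type 33D1 arrays and 6156, 7168 and 6716 on the Flt3L 33D1 arrays. In DEC205 cells it was 7446, 7846 and 7197 against 7548, 8187 and 7959. The 33D1 groups did not overlap and the DEC205 groups did, and the main effect missed the threshold (difference 0.26 ± 0.09, adjusted p = 0.148). Of 25 measured genes of Flt3 and colony-stimulating factor receptor signalling, 1 was called by limma and 0 moved in both subsets, while 9 had an unadjusted p under 0.05. Over all genes 3.55% were called and 16.3% had an unadjusted p under 0.05. The called gene was Myc, a growth-promoting transcription factor, whose difference was 1.06 in DEC205 cells and 0.23 in 33D1 cells (difference 0.65 ± 0.14, adjusted p = 0.0245), and it lost its call without any 1 of the 6 DEC205 arrays and without both mixed arrays (adjusted p = 0.0924). The median of the list was -0.05. The receptors Kit, Csf1r and Csf2ra differed by -0.38, -0.52 and -0.19, and the signalling genes Stat5a, Stat5b and Mtor by 0.09, 0.14 and 0.15. None of these 6 was called.

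A different tyrosine kinase receptor gave the largest shared increase among the genes named by the rule given under processing. Fgfr1, a receptor for fibroblast growth factors, was 267, 336 and 255 on the wild-type 33D1 arrays and 1029, 1271 and 1414 on the Flt3L 33D1 arrays. On the DEC205 arrays it was 396, 294 and 285 in wild-type and 1382, 1578 and 818 in Flt3L mice. Every Flt3L array lay above every wild-type array, with ratios of means of 4.33 in 33D1 cells and 3.88 in DEC205 cells (difference 1.85 ± 0.15, adjusted p = 0.000103). The interaction, which tests whether the effect differed between subsets, was 0.17 ± 0.31. Of the other 2 probe sets of the gene, both had the same sign and 1 was called.

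Etv5, an ETS transcription factor induced downstream of fibroblast growth factor receptors, rose as well. Its signals were 317, 258 and 238 against 632, 416 and 483 in 33D1 cells and 127, 37.8 and 69.3 against 316, 248 and 234 in DEC205 cells, with no overlap within a subset (difference 1.08 ± 0.19, adjusted p = 0.00742). Lifr, the receptor chain for leukaemia inhibitory factor, was 437, 426 and 431 in wild-type 33D1 cells and 625, 895 and 575 in those of Flt3L mice. In DEC205 cells Lifr was 21.5, 15.6 and 18.5 in wild-type mice and 463, 353 and 201 in Flt3L mice (difference 1.54 ± 0.30, adjusted p = 0.012). No groups overlapped within a subset, and the wild-type DEC205 arrays were the lowest. The difference was 0.61 in 33D1 cells and 2.47 in DEC205 cells, and the interaction was not called (adjusted p = 0.157). The other 2 probe sets of Lifr had the same sign without being called.

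Of 22 measured genes of fibroblast growth factor receptor and gp130 signalling these 3 rose in both subsets (13.6%, against 2.19% of all genes). Like the other gene lists, this one was chosen with earlier results of these data known, so the share describes these arrays only. In this list 0 fell in both, and the median was 0.01. The other family receptors Fgfr2, Fgfr3 and Fgfr4 differed by -0.22, 0.24 and 0.08 and the feedback inhibitors Spry1, Spry2 and Spry4 by -0.22, -0.22 and -0.20, none of them called. Dusp6, Spred1, Spred2 and Etv4 of the same list differed by 0.45, 0.15, 0.31 and 0.19, also without being called. Il6st, which encodes gp130, the signalling partner of Lifr, was 2715, 2949 and 2293 against 2787, 2148 and 2973 in 33D1 cells, where the groups overlapped. On the DEC205 arrays it stood at 1902, 1742 and 1756 in wild-type and 675, 605 and 789.5 in Flt3L mice, where they did not. Lifr and Il6st therefore had differences of opposite sign in the DEC205 cells, 2.47 and -1.33.

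**Figure D2:**
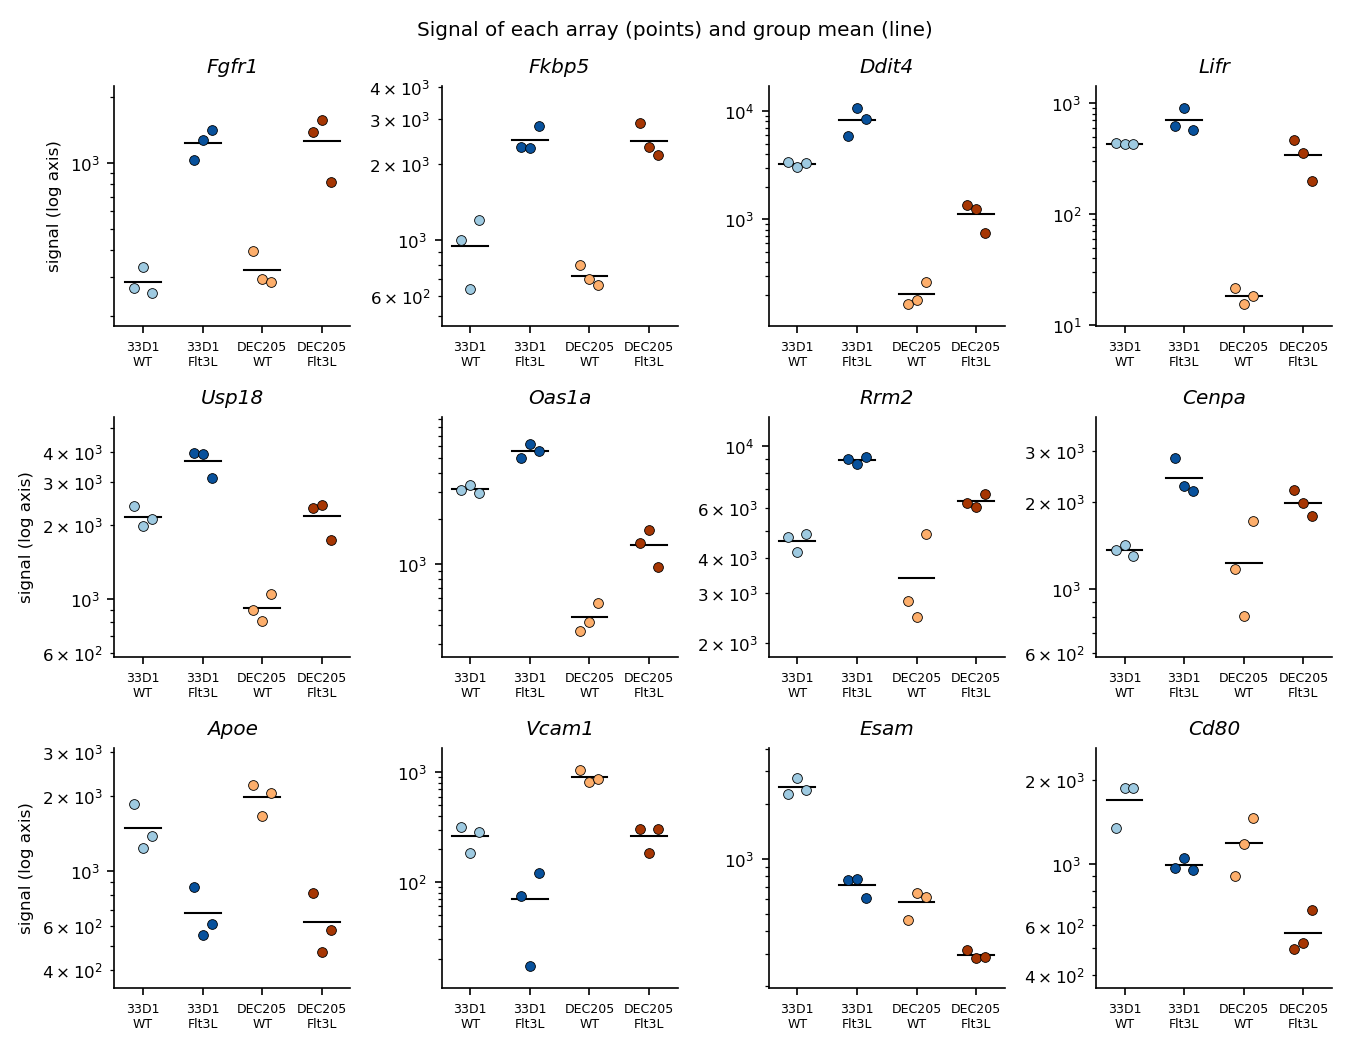
Signal of 12 genes on a logarithmic axis, with 1 point for each array and a line at the mean of the 3 arrays, for wild-type and Flt3L mice of each subset. Fgfr1, Fkbp5, Ddit4, Lifr, Usp18 and Oas1a lay higher and Apoe, Vcam1, Esam and Cd80 lower in Flt3L mice of both subsets; for Cenpa and Rrm2 the third wild-type DEC205 array came closest to the Flt3L arrays.

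Of 16 measured genes that glucocorticoids induce, 4 rose in both subsets and 0 fell, against 2.19% of all genes rising. The median of the list was 0.08. Fkbp5, a co-chaperone of the glucocorticoid receptor, was 1003, 641 and 1196 in wild-type and 2337, 2304 and 2815 in Flt3L 33D1 cells. The DEC205 signals were 796, 702 and 662 against 2889, 2318 and 2157. The groups were apart in both subsets, with ratios of means of 2.62 and 3.41 (difference 1.54 ± 0.13, adjusted p = 0.000118).

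Ddit4, an inhibitor of mTORC1, was 3387, 3022 and 3328 in wild-type and 5892, 10601 and 8363 in Flt3L 33D1 cells. It was 165, 181 and 262 in wild-type and 1341, 1231 and 749 in Flt3L DEC205 cells (difference 1.74 ± 0.20, adjusted p = 0.000583). The wild-type levels differed widely between the subsets, and the increase was seen at both levels, 2.55-fold in 33D1 and 5.46-fold in DEC205 cells. Tsc22d3, the glucocorticoid-induced leucine zipper, rose 1.62-fold and 1.95-fold (difference 0.81 ± 0.10, adjusted p = 0.000649). Anxa1, an anti-inflammatory annexin, rose 1.24-fold and 1.3-fold, with an adjusted p of 0.0373 that ran from 0.0207 to 0.0883 when arrays were left out in turn and was 0.156 without both mixed arrays, where 3 genes of the list were called. With all 21 arrays in the model 2 were called, Tsc22d3 and Anxa1 losing their calls (adjusted p = 0.0569 and 0.362). The other classical members Per1, Klf9 and Sgk1 differed by 0.13, 0.04 and 0.08 and Zbtb16 by -0.06, none of them called. The 4 genes that rose are thus a minority of the list.

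Genes of cell division gave the lists with the most members that rose. Of 39 measured genes of mitosis and the kinetochore, 30 rose in both subsets and 0 fell, against 2.19% of all genes rising. Of 33 measured genes of S phase and DNA replication, 24 rose in both and 0 fell. All 39 and all 33 members had a positive difference, with medians of 0.75 and 0.55. In cells measured in bulk, a larger share of cycling cells and more of these transcripts per cell cannot be told apart.

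Cenpa, the histone H3 variant that marks centromeres, was 1367, 1416 and 1301 on the wild-type and 2839.6, 2263 and 2172 on the Flt3L 33D1 arrays. On the DEC205 arrays it was 1174, 801 and 1716 against 2192, 1978 and 1789 (difference 0.77 ± 0.14, adjusted p = 0.00817). All Flt3L values exceeded the wild-type values of their subset, with the wild-type DEC205 array 3 standing closest. Cdk1, the kinase that drives entry into mitosis, was 1485, 1135 and 1143 against 2877, 2244 and 2355 in 33D1 cells, and 1083, 826 and 2225 against 2794, 2967 and 2755 in DEC205 cells (difference 1.05 ± 0.18, adjusted p = 0.00558). Rrm2, a subunit of ribonucleotide reductase, was 4734, 4218 and 4862 against 8954, 8606 and 9108 in 33D1 cells. DEC205 cells had 2814, 2471 and 4877 against 6262, 6066 and 6746 (difference 0.95 ± 0.13, adjusted p = 0.00137). The same array was again the highest of its group for both genes, and no groups overlapped.

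Among the genes with the largest shared differences, 2 belong to proliferation although neither list held them. E2f8, an E2F repressor expressed in S phase, was 714, 719 and 637 against 2074, 1797 and 1832 in 33D1 cells and 567, 384 and 789.9 against 1356, 1402 and 1514 in DEC205 cells (difference 1.34 ± 0.12, adjusted p = 0.000239). Iqgap3, a scaffold protein of proliferating cells, rose 3-fold and 2.34-fold (difference 1.36 ± 0.15, adjusted p = 0.000449). For E2f8 a second probe set was also called higher. The other probe set of Iqgap3 differed by 0.42 and was not called. Further members with small adjusted p-values were Nuf2 of the kinetochore (difference 1.04 ± 0.12, adjusted p = 0.000649), whose adjusted p was 0.164 with all 21 arrays in the model, the thymidine kinase Tk1 (difference 1.06 ± 0.14, adjusted p = 0.00111) and the DNA ligase Lig1 (difference 0.80 ± 0.09, adjusted p = 0.000649). At the low end stood Fen1, a flap endonuclease, at 0.05, Pcna, the replication clamp, at 0.30, and the kinesin Kif4 at 0.26, none of them called.

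The summed signal of the mitosis genes was 42436 to 49069 in wild-type and 77199 to 89803 in Flt3L 33D1 cells. Among DEC205 arrays the values were 27022 to 53116 and 57775 to 65806. On the lymphocyte arrays it lay between 6675 and 15731. Wild-type dendritic cells of both subsets thus already carried more of these transcripts than the lymphocytes sorted in the same study, and the highest wild-type DEC205 sum belonged to array 3, which also carried 33D1 transcripts. Without both mixed arrays the main effect called 34 mitosis and 26 S phase genes higher, against 32 and 25 with all arrays. Without wild-type 33D1 replicate 2 the mitosis count was 20. With all 21 arrays in the model, which adds the lymphocyte arrays to the estimate of the spread, the counts were 14 mitosis and 15 S phase genes.

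The cell cycle homology region, with the letters TTTGAA, lies close to the start of many genes that are switched on in mitosis. It was searched on both strands in the 250 bases before the first listed start of each gene in the RefSeq promoters (GRCm38.p6). The letters were present in 8 of 25 promoters of the mitosis genes that rose (32.0%), in 2 of 21 of the S phase genes that rose (9.5%), and in 16.3% of 27025 promoters. The 60 bases ending at the start are shown for 5 of the mitosis genes, since the letters lay within 30 bases of the start there, with the match in capitals (TTCAAA where it is on the other strand), each 5′ to 3′ along the gene's strand. The windows were chr4:118437344-118437403 for Cdc20 and chr10:69352913-69352972 for Cdk1 on the minus strand, chr19:37376322-37376381 for Kif11 on the plus strand, chr11:99024190-99024249 for Top2a on the minus strand and chr2:164769869-164769928 for Ube2c on the plus strand.
Cdc20: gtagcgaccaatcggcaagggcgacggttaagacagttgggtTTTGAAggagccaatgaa
Cdk1: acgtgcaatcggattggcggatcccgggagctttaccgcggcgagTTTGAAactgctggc
Kif11: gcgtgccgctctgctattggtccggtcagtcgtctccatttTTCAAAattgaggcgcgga
Top2a: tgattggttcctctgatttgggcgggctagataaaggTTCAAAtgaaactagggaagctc
Ube2c: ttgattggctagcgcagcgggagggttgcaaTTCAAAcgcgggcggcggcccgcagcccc
All of these genes rose in both subsets, with main effects of 0.67 for Cdc20, an activator of the anaphase-promoting complex, 1.05 for Cdk1, 0.95 for Kif11, a spindle motor, 0.85 for Top2a, the mitotic topoisomerase, and 1.02 for Ube2c, a ubiquitin-conjugating enzyme of anaphase. A match describes the letters in this window and does not show that a factor binds there.

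**Figure D3:**
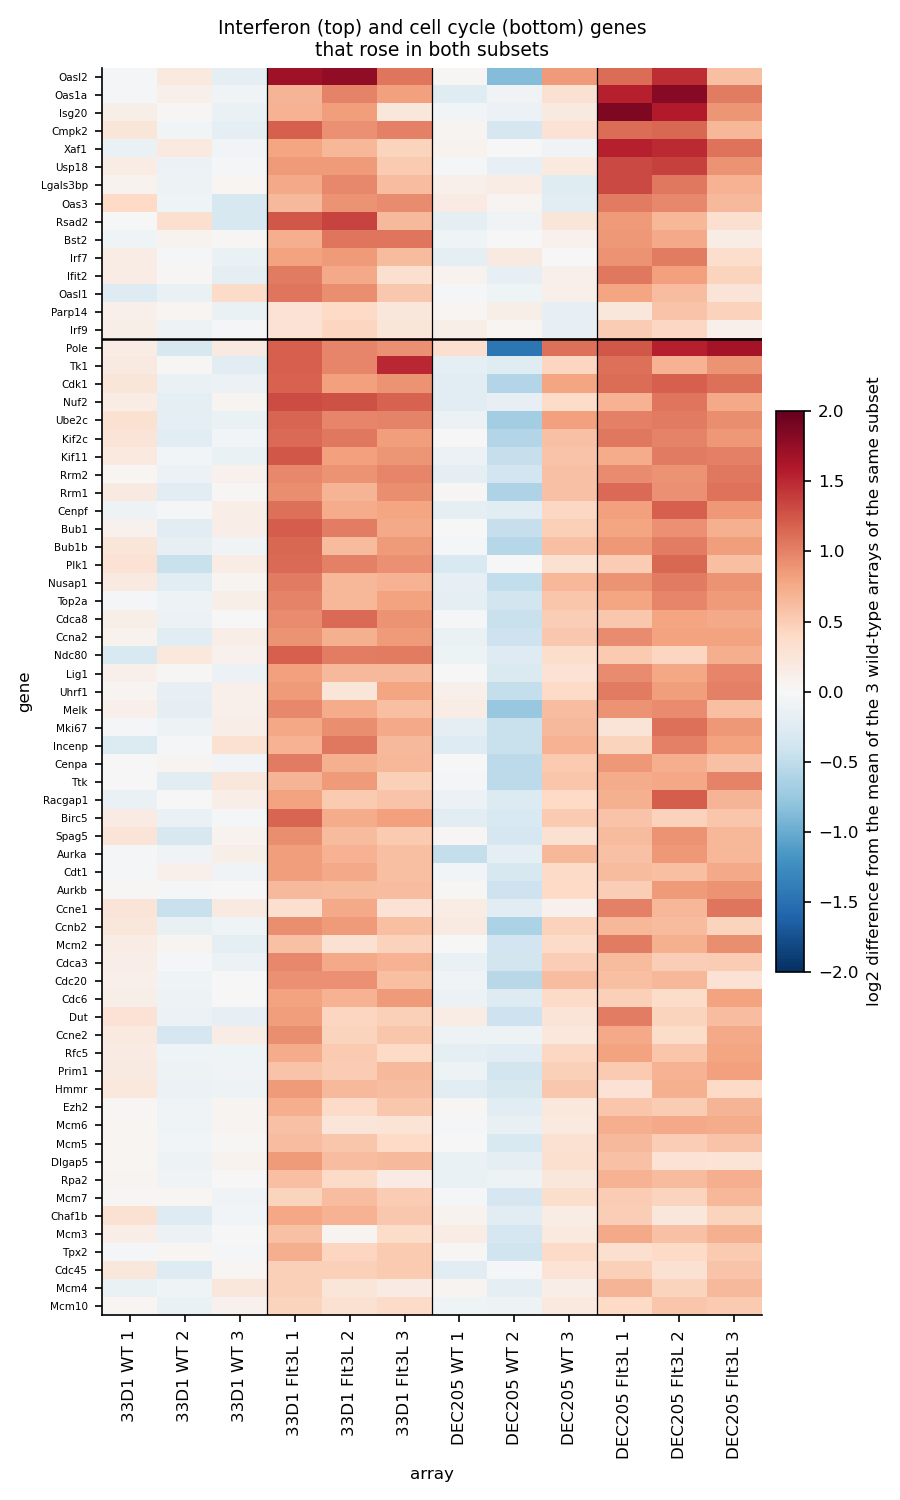
Log2 difference of each array (columns) from the mean of the 3 wild-type arrays of its own subset, for the 15 interferon genes (top) and the 30 mitosis and 24 S phase genes (bottom) that rose in both subsets (rows); red is higher. The Flt3L columns are red in both subsets, and among the wild-type columns DEC205 array 3 is red and DEC205 array 2 blue for most cell cycle genes.

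Interferon-stimulated genes formed the next group. Of 38 measured members, 15 rose in both subsets (39.5%, against 2.19% of all genes) and 0 fell. A positive difference was seen for 35, with a median of 0.53. The main effect called 18 higher. This count was 15 without both mixed arrays and ran from 13 to 21 with arrays left out in turn.

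Oas1a, an oligoadenylate synthetase that senses double-stranded RNA, was 3058, 3324 and 2945 in wild-type and 4998, 6198 and 5540.4 in Flt3L 33D1 cells. In DEC205 cells it was 367, 421 and 561 against 1392, 1681 and 965 (difference 1.15 ± 0.15, adjusted p = 0.00119). Groups did not overlap, although the DEC205 level in Flt3L mice stayed below the wild-type 33D1 level. Usp18, an inhibitor of interferon receptor signalling, was 2389, 1990.0 and 2117 against 3949.8, 3917 and 3125 in 33D1 cells. On the DEC205 arrays it stood at 896, 808 and 1048 against 2359, 2425 and 1742 (difference 0.97 ± 0.12, adjusted p = 0.00069). Irf7, the transcription factor that amplifies type I interferon, rose 1.71-fold and 1.73-fold (difference 0.76 ± 0.11, adjusted p = 0.00228), and Bst2, which tethers enveloped viruses, 2.04-fold and 1.58-fold (difference 0.78 ± 0.12, adjusted p = 0.00439). In DEC205 cells array 3 of the Flt3L group was the lowest of its group for Oas1a, Usp18, Irf7 and Bst2.

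Ifi27l2a, an interferon-inducible mitochondrial protein outside the list, is among the genes with the largest shared increase. It was 4467, 4393 and 3074 against 7890.5, 10409 and 7572 in 33D1 cells and 631, 444 and 904 against 4303, 4205 and 2222 in DEC205 cells (difference 1.73 ± 0.25, adjusted p = 0.00215). Ifi213, of the interferon-inducible Ifi200 family, was 534, 903 and 676 against 2105, 2617 and 1901 in 33D1 cells. In DEC205 cells Ifi213 was 19.5, 130.0 and 98.4 against 137, 390.4 and 160.3 (difference 1.34 ± 0.26, adjusted p = 0.0114). Neither gene overlapped between treatments within a subset, the Ifi213 margin in DEC205 cells being narrow. The other probe set of Ifi213 differed by 0.64 and was not called. Slfn1, a Schlafen protein, was at the bottom of the scale in wild-type mice of both subsets, at most 17.7. In Flt3L mice it was 257, 316 and 246 in 33D1 cells and 37.3, 75.8 and 13.4 in DEC205 cells (difference 1.48 ± 0.28, adjusted p = 0.0102). The DEC205 values 37.3 and 13.4 also lay under the offset of 48.6. The difference of Slfn1 was 2.34 in 33D1 cells and 0.63 in DEC205 cells, where limma alone did not call it (adjusted p = 0.293). Its other probe set differed by 0.16 and was not called. Not all of the list moved: Gbp2 and Gbp3, guanylate-binding proteins induced most strongly by interferon gamma, differed by -0.22 and -0.24, the chemokine Cxcl10 by 0.08 and the RNA sensor Ifih1 by 0.13, none of them called.

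The core of the interferon-stimulated response element, with the letters GAAA, any 2 bases and GAAA again, was searched in the same windows. It was present in 4 of 13 promoters of the interferon genes that rose (30.8%), in 13 of 30 promoters of all measured members (43.3%) and in 3.0% of all promoters. The 4 genes with it are shown, 60 bases each, 5′ to 3′ along the gene's strand, which is the minus strand for all of them. Capitals mark the letters (on the other strand for Rsad2; 2 overlapping matches for Bst2 and Oas1a). The windows were chr8:71537562-71537621 for Bst2, chr5:120907526-120907585 for Oas1a, chr5:120777700-120777759 for Oas3 and chr12:26456538-26456597 for Rsad2, an antiviral radical SAM enzyme.
Bst2: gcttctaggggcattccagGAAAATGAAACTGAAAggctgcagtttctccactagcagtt
Oas1a: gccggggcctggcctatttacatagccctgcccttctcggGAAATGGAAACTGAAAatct
Oas3: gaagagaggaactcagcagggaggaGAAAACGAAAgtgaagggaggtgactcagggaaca
Rsad2: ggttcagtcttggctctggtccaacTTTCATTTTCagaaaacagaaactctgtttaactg
The main effects of the genes shown were 0.78 for Bst2, 1.15 for Oas1a, 0.86 for Oas3 and 0.85 for Rsad2.

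Other large shared increases concerned membrane, cytoskeletal and secreted proteins. Ahnak, a giant scaffold protein under the plasma membrane, was 195, 271 and 188 against 583, 787 and 1977 in 33D1 cells. The DEC205 signals were 1773, 1776 and 1580.2 against 3737, 6565 and 4446 (difference 1.71 ± 0.23, adjusted p = 0.00166). The groups were apart, the highest 33D1 value coming from the Flt3L array with DEC205 transcripts; of its other 3 probe sets 2 had the same sign and 0 were called. Qpct, glutaminyl cyclase, was 76.4, 12.4 and 9.5 against 120.2, 258 and 177 in 33D1 cells, where wild-type values were low, and 509.9, 312 and 319 against 1109, 1427 and 736 in DEC205 cells (difference 1.48 ± 0.23, adjusted p = 0.00358). Olfm1, a secreted olfactomedin, was 35.1, 25.6 and 24.4 against 433, 571 and 630.3 in 33D1 cells. In DEC205 cells, where it was abundant in both treatments, it was 4054, 3068 and 2657 against 5373, 5559.7 and 4893 (difference 1.82 ± 0.32, adjusted p = 0.00678). The wild-type 33D1 signals lay under the offset of 48.6, so no ratio is given, and the differences were 2.93 in 33D1 and 0.71 in DEC205 cells.

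Some of the genes that fell are markers of tissue macrophages. Of 15 measured macrophage markers, 3 fell in both subsets and 0 rose, against 0.929% of all genes falling; 14 of the 15 differences were negative and the median was -0.50. Vcam1, an adhesion molecule carried by splenic macrophages and stroma, was 316, 186 and 283 in wild-type and 74.9, 17.2 and 120.1 in Flt3L 33D1 cells. DEC205 cells had 1040.2, 813 and 873 against 306, 183 and 307 (difference -1.54 ± 0.21, adjusted p = 0.0018). The other 2 probe sets of Vcam1 differed by -0.71 and -0.48 and were not called. Apoe, apolipoprotein E, was 1848, 1239.6 and 1373 against 860.1, 556 and 614 in 33D1 cells. Among DEC205 arrays the values were 2210.0, 1651 and 2042 against 819, 475 and 578 (difference -1.34 ± 0.16, adjusted p = 0.000649). Both genes were below every wild-type value of the subset on every Flt3L array. Spic, the transcription factor of red pulp macrophages, fell to 0.545 and 0.399 of the wild-type mean, and its adjusted p of 0.0398 ran up to 0.0888 with arrays left out in turn and was 0.164 without both mixed arrays.

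The defining genes of the list did not all behave alike. The complement genes C1qa, C1qb and C1qc differed by -0.83, -0.65 and -0.61 and Adgre1, which encodes F4/80, by -0.50, without being called, while Marco, Cd5l and Siglec1 differed by -0.07, -0.02 and 0.16. The summed macrophage signal was 13937 to 16571 in wild-type and 11713 to 12256 in Flt3L 33D1 cells, and 14601 to 18636 and 12575 to 13467 in DEC205 cells. The sums did not overlap, and the part of other cells in the lower Apoe and Vcam1 signals was not tested.

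The largest shared decrease among the genes named by the rule, which required treatments to be apart in each subset, was that of Gp2, a glycoprotein receptor for bacteria. It was 243, 237 and 497 in wild-type and 97.4, 146 and 127 in Flt3L 33D1 cells, and 1830.4, 2046 and 987 against 243, 163 and 198 in DEC205 cells (difference -1.88 ± 0.29, adjusted p = 0.00362). Serpinb2, a protease inhibitor of the plasminogen system, was 516, 708 and 514 against 425, 338 and 199.8 in 33D1 cells. In DEC205 cells it was 1896, 1767 and 1822 against 368, 155 and 279 (difference -1.72 ± 0.30, adjusted p = 0.00727). For both genes every Flt3L array lay below the wild-type arrays of its subset, and the decrease was larger in the DEC205 cells, to 0.124 and 0.146 of the wild-type mean against 0.379 and 0.554 in 33D1 cells; the interaction was called for neither. Mefv, which encodes the inflammasome sensor pyrin, was 4649, 4869 and 4475 against 2447, 2281 and 2725 in 33D1 cells. In DEC205 cells Mefv was 2992, 2398 and 2764 against 477, 357 and 802 (difference -1.59 ± 0.23, adjusted p = 0.00228). Mmp12, the macrophage elastase, was 2723, 2633 and 2749 against 1319.8, 765 and 799.8 in 33D1 cells, and low in DEC205 cells at 60.1, 64.5 and 195 against 10.5, 24.6 and 17.6 (difference -1.31 ± 0.20, adjusted p = 0.00305). Mefv and Mmp12 were also apart in both subsets. Mmp12 was higher in 33D1 cells, and the part of 33D1 transcripts in its lower DEC205 signal was not tested. Procr, the endothelial protein C receptor, fell to 0.6 and 0.321 of the wild-type mean (difference -1.15 ± 0.17, adjusted p = 0.0029), and Abcb1a, a drug efflux pump, to 0.415 and 0.349 (difference -1.18 ± 0.18, adjusted p = 0.00359). Alpk2, Rims4 and Stra6l completed the 12 largest shared decreases among genes whose treatments were apart in each subset, with differences of -1.36, -1.35 and -1.14; the 1 other probe set of Rims4 had the opposite sign without being called.

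Several costimulatory molecules fell. Of 23 measured genes of costimulation and maturation, 5 fell in both subsets (21.7%, against 0.929% of all genes) and 0 rose. In this list 18 differences were negative, and the median was -0.39. Cd80, a ligand of CD28, was 1343, 1871 and 1868 against 968, 1046 and 949.5 in 33D1 cells. On the DEC205 arrays it stood at 906, 1179.9 and 1460.2 against 496, 519.7 and 679.6 (difference -0.86 ± 0.12, adjusted p = 0.00233). Cd86, the other CD28 ligand, was 1276, 1504 and 1476 against 1020.3, 1083 and 998 in 33D1 cells and 6367, 6152 and 6710.3 against 4886, 4940.5 and 5315 in DEC205 cells (difference -0.39 ± 0.06, adjusted p = 0.00472). Neither gene overlapped within a subset, and the difference of Cd86 was the smaller one. Cd40, the receptor for T cell help, fell to 0.766 and 0.601 of the wild-type mean (difference -0.54 ± 0.08, adjusted p = 0.00276).

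Cd274, which encodes the inhibitory ligand PD-L1, fell to 0.536 and 0.51 of the wild-type mean, with an adjusted p of 0.0294 that ran from 0.0109 to 0.0744 with arrays left out in turn and was 0.133 without both mixed arrays. Slco5a1, an anion transporter family member found in mature dendritic cells, was the fifth (difference -0.56 ± 0.14, adjusted p = 0.046). The count was 3 without both mixed arrays and without any 1 of 6 single arrays, among them wild-type 33D1 replicate 2 and wild-type DEC205 replicate 3; Cd80, Cd86 and Cd40 stayed called each time. Under median centring it was 2. With all 21 arrays in the model it was 1, and Cd80, Cd86 and Cd40 lost their calls (adjusted p = 0.0943, 0.283 and 0.111). The migration receptor Ccr7 and the maturation marker Fscn1 differed by -0.33 and -0.05 and were not called. Of 27 immediate early and heat shock genes, which respond to handling of cells, 1 was called (3.7%, against 3.55% of all genes). Ier3 fell in both subsets (difference -1.53 ± 0.29, adjusted p = 0.0106). In the list 9 genes had an unadjusted limma p under 0.05 (33.3%, against 16.3% of all genes). The median of that list was -0.34, with -0.64 in DEC205 and -0.09 in 33D1 cells, and its part in the lower costimulatory genes was not tested.

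Notch signalling shapes the 33D1 subset in the spleen. Of 20 measured Notch pathway genes, 3 fell in both subsets and 0 rose, against 0.929% of all genes falling. In this list 12 differences were positive and 8 negative, and the median was 0.04. Esam, an adhesion molecule that marks Notch2-dependent CD8-negative dendritic cells, was 2247, 2764 and 2369.5 in wild-type and 767, 776 and 606 in Flt3L 33D1 cells. The DEC205 signals were 461, 647 and 619 against 318, 284 and 289 (difference -1.28 ± 0.15, adjusted p = 0.000683). Hes1, a transcriptional repressor induced by Notch, was 1011, 1440.4 and 939.9 against 568, 390.3 and 555 in 33D1 cells. DEC205 cells had 862, 1017 and 851 against 543, 293 and 626 (difference -0.99 ± 0.16, adjusted p = 0.00509). The treatments were apart in both subsets for both genes. Jag1, a Notch ligand, fell to 0.574 and 0.315 of the wild-type mean (difference -0.97 ± 0.17, adjusted p = 0.00633). Esam and Jag1 were higher in 33D1 cells, and the part of 33D1 transcripts in their lower DEC205 signals was not tested. Dtx1, which is also induced by Notch, differed by -0.93 and was not called. Other members of the list, Hey1, Nrarp, Notch1 and Hes5, differed by 0.52, 0.20, 0.45 and -0.105, none of them called.

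Of 18 measured genes of cholesterol synthesis and uptake, 2 fell in both subsets (11.1%, against 0.929% of all genes), Hmgcs1 (difference -0.49 ± 0.09, adjusted p = 0.00937) and Idi1 (difference -0.52 ± 0.11, adjusted p = 0.0219), both enzymes of the mevalonate pathway, and the median was -0.24. Neither was called under median centring or without both mixed arrays (adjusted p = 0.0535 and 0.0964 for the latter). Of 21 measured genes of glycolysis and hypoxia, 3 rose in both (14.3%, against 2.19% of all genes): the glucose transporter Slc2a1 (difference 0.42 ± 0.08, adjusted p = 0.0132), the phosphofructokinase Pfkp (difference 0.45 ± 0.10, adjusted p = 0.0192) and the collagen prolyl hydroxylase P4ha1 (difference 0.52 ± 0.11, adjusted p = 0.0228). The median of that list was 0.03, and without both mixed arrays Pfkp and P4ha1 lost their calls, with adjusted p-values of 0.0801 and 0.112. Of 24 measured cytosolic ribosomal protein genes 0 were called by limma and 1 had an unadjusted p under 0.05. Of 23 genes of folding in the endoplasmic reticulum 0 were called and 8 had one (34.8%), against 16.3% of all genes.

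The lists of dendritic cell identity and antigen presentation are read against 3.55% of all genes called and 16.3% with an unadjusted p under 0.05. Of 19 measured dendritic cell transcription factors 0 were called by limma and 6 had an unadjusted p under 0.05 (31.6%), with a median of -0.04. Differences ran from -0.75 (Irf4) to 0.53 (Irf8), 9 of them positive and 10 negative. Spi1, Id2 and Zbtb46 differed by -0.07, 0.13 and 0.22. Relb and Bcl11a differed by -0.55 and -0.59 and missed the limma threshold narrowly (adjusted p = 0.0579 and 0.0616). Of 18 measured genes of MHC class I presentation 0 were called and 2 had an unadjusted p under 0.05, with differences between -0.17 (Psmb10) and 0.23 (Tap1). Of 22 measured genes of MHC class II presentation, Ctse, an endosomal aspartic protease, rose in both subsets (difference 0.47 ± 0.10, adjusted p = 0.0199) and Marchf1, the ubiquitin ligase that removes MHC class II from the surface, fell in both (difference -0.30 ± 0.07, adjusted p = 0.0361). Ctse lost its call without wild-type 33D1 replicate 2 and without Flt3L DEC205 replicate 2, and the adjusted p of Marchf1 ran up to 0.0826 with arrays left out and was 0.157 without both mixed arrays. The chains H2-Aa and H2-Ab1 differed by -0.05 and -0.10. Of 18 measured Toll-like receptor genes 0 were called and 2 had an unadjusted p under 0.05, against 16.3% of all genes. A p above the threshold does not show that these genes were equal between treatments.

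Markers of other cells were measured alongside, against 3.55% of all genes called and 16.3% with an unadjusted p under 0.05. Of 13 T cell, 13 B cell, 10 NK cell, 9 monocyte and 10 melanocyte and melanoma markers, 0, 1, 1, 0 and 0 were called by limma, and 2, 3, 2, 3 and 0 had an unadjusted p under 0.05. The B cell gene was Ms4a1, which encodes CD20 and fell (difference -1.08 ± 0.20, adjusted p = 0.0107), with an adjusted p of 0.054 without both mixed arrays. The NK cell gene was Klrk1, which encodes NKG2D and rose (difference 0.61 ± 0.11, adjusted p = 0.00697), with an adjusted p of 0.244 with all 21 arrays in the model. Of 12 neutrophil markers Mmp9, a gelatinase, fell in both subsets (difference -0.79 ± 0.18, adjusted p = 0.0281), with adjusted p-values of 0.129 without both mixed arrays and 0.0542 with all 21 arrays. Of 12 stromal and endothelial markers Pecam1, which encodes CD31, fell in both (difference -0.79 ± 0.14, adjusted p = 0.00722). Of 8 erythroid, 7 platelet, 7 plasma cell and 8 mast cell markers 0 were called by limma, and 1, 0, 3 and 1 had an unadjusted p under 0.05. Of 11 plasmacytoid dendritic cell markers Irf7 and Bst2 rose in both subsets, which also belong to the interferon list. Of 12 progenitor markers Cebpa, a myeloid transcription factor, rose in both (difference 0.81 ± 0.17, adjusted p = 0.0189), with an adjusted p of 0.0503 without Flt3L 33D1 replicate 3 and 0.0822 without both mixed arrays. The summed progenitor signal was 16396 to 17660 in wild-type and 16288 to 18269 in Flt3L 33D1 cells, and 14184 to 14716 and 13930 to 14713 in DEC205 cells, overlapping in both subsets. The sum of the 15 markers of CD8-negative cells was 2286 to 2416 on the Flt3L DEC205 arrays and 3863 to 11116 on the wild-type ones, the highest being array 3, and 95924 to 102502 against 113831 to 126040 in 33D1 cells. Esam is among those 15 and fell in both subsets, and the part of 33D1 transcripts in its lower DEC205 signal was not tested.

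**Figure D4:**
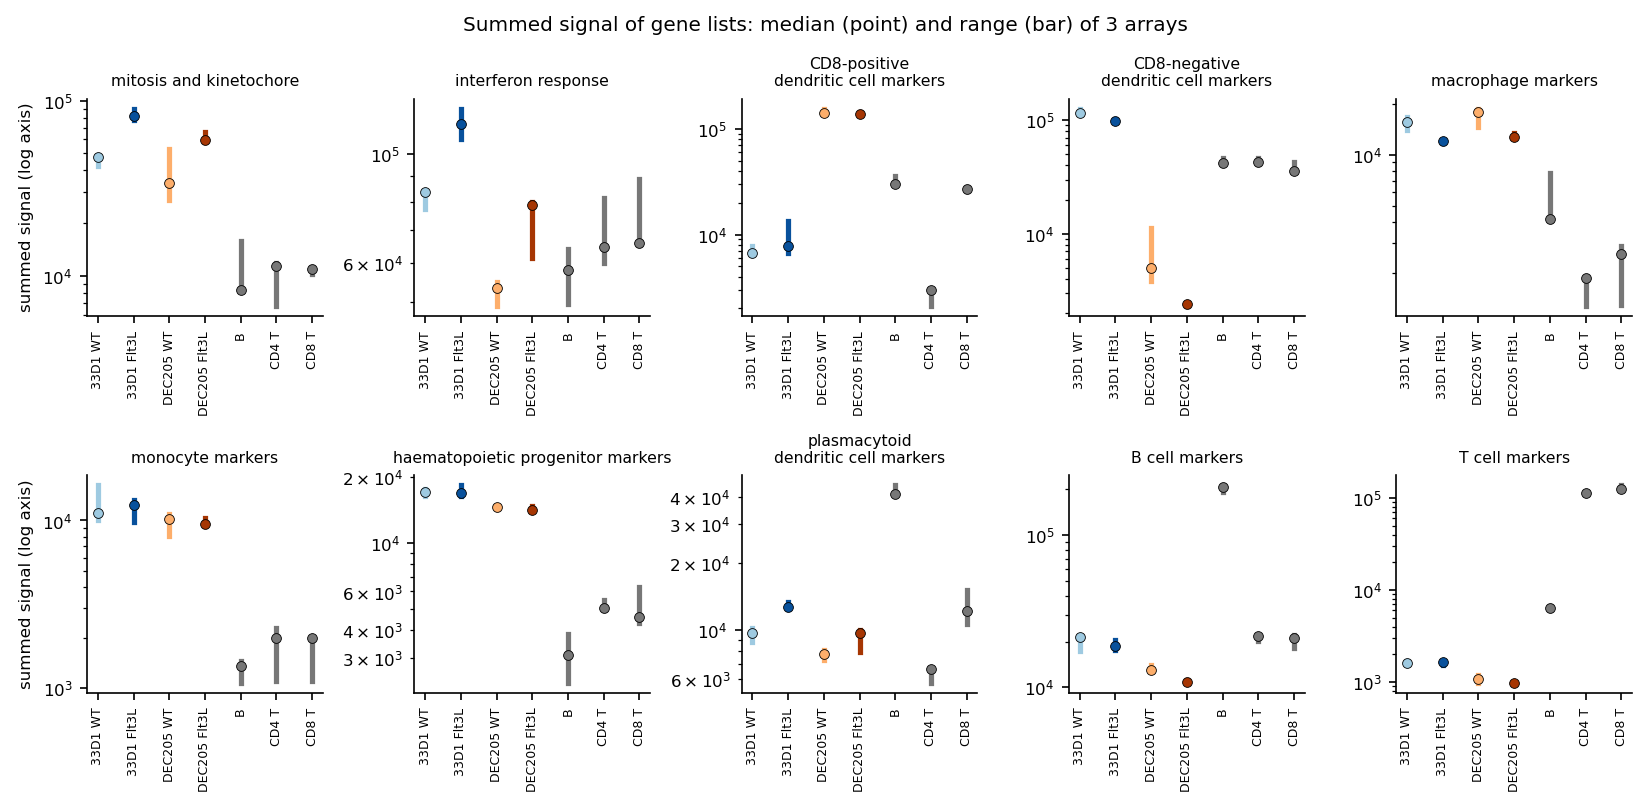
Summed signal of 10 gene lists on logarithmic axes, with the median (point) and range (bar) of the 3 arrays in each of the 7 groups. The mitosis and interferon sums were higher and the macrophage sums lower in Flt3L mice of both subsets without overlap, while progenitor sums overlapped; the B cell sum was highest on the B cell arrays and the T cell sum on the T cell arrays.

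**Figure D5:**
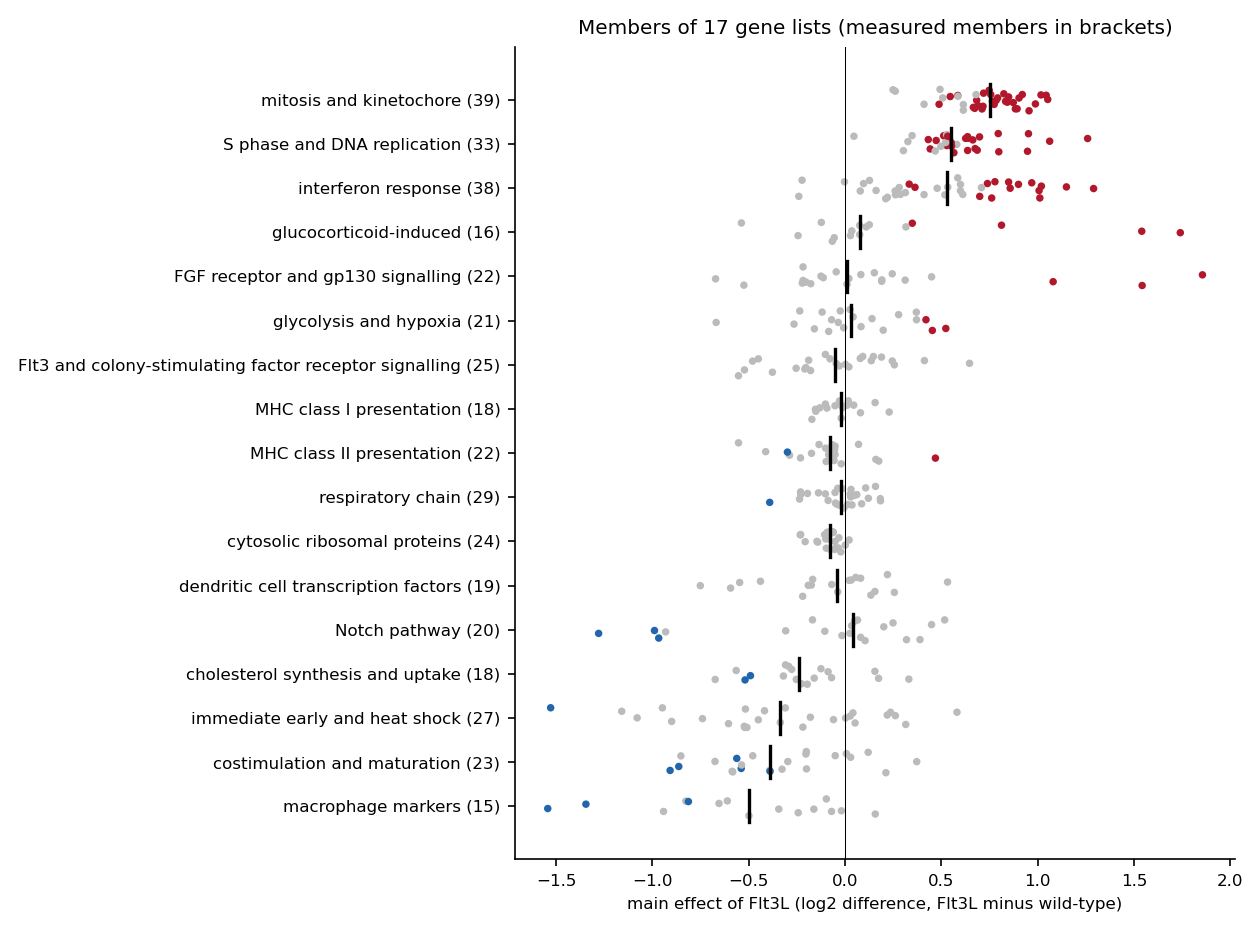
Main effect of Flt3L (log2, x axis) for the measured members of 17 gene lists, with 1 point for each gene, red or blue where it rose or fell in both subsets, and a black bar at the list's median. All members of the mitosis and S phase lists lie to the right of 0, with medians of 0.75 and 0.55, and 14 of the 15 macrophage markers lie to the left.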

How the data were processed

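RNA of sorted cell pools was hybridised to Affymetrix mouse arrays, from biotinylated cRNA made of 5 ug total RNA per the labels' protocols. The values the authors deposited are linear probe set intensities; the submitters' processing notes name GCOS and MAS5, without versions. Every array had been scaled to one trimmed mean (2% at each end) before deposit, and the scaling was kept. MAS5 detection calls were not used here, and the number of arrays limits the precision.

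Of 45101 probe sets, 64 were controls and left out, 34945 had 1 gene symbol in the platform annotation, 932 several and 9160 none; 34741 of the named ones matched a RefSeq gene, and 0 symbols changed. Only probe sets with 1 symbol were tested. Signals entered as log2(signal + 48.6), where the offset equals percentile 25 of all signals. The additive model of treatment and subset (lmFit and eBayes with trend, limma 3.58.1 in R 4.3.3, 9 residual degrees of freedom) was fitted to the 12 dendritic cell arrays. A model with 1 mean per group (8 degrees of freedom) gave the differences within each subset and the interaction. P-values were adjusted over 34945 probe sets by the Benjamini-Hochberg method, and each of 18193 genes was read from the probe set of highest mean signal on the 12 arrays. The procedure was tested on simulated data.

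The rule for named genes took the 12 highest and 12 lowest main effects among genes moved in both subsets whose treatments were apart in each. For these genes the lack of overlap was therefore set by the rule and is no separate result. It also took the 5 highest and 5 lowest called interactions, from each list the called members of smallest adjusted p, at most 4, all measured genes of Flt3 and colony-stimulating factor signalling, the sort markers, and Fgfr1, Cenpa and Oas1a. Genes named to show the rest of a list were chosen after their values were seen. Groups follow the sample titles, and the main model did not pair arrays by replicate number. The members and gene lists were chosen with earlier results of these data known. Alternatives were quantile normalization, median centring, other offsets (16 and 200), a filter on low signals (above 156.3 on at least 3 arrays), adjustment over 1 probe set per gene, a model over all 21 arrays, no intensity trend, a replicate block, and arrays left out.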

Additional observations from a re-analysis of the deposited data

Results flagged for a closer look

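For 6 genes the effect of Flt3L differed between the subsets by the test of the difference itself (limma interaction, 33D1 minus DEC205, log2). Slc27a2, a fatty acid transporter of peroxisomes, differed by 2.397 (adjusted p = 0.0354). Its signals were 82.6, 70.7 and 35.3 in wild-type and 438, 632 and 527 in Flt3L 33D1 cells, and at most 21.8 on every DEC205 array, under the offset of 48.6, which sets part of this difference. For Olfm1 the difference was 2.228 (adjusted p = 0.00652), with a rise in both subsets that was larger in 33D1 cells. For Il6st it was 1.315 and for Adam23, a disintegrin-like adhesion protein, 0.932, each from a larger decrease in DEC205 cells (adjusted p = 0.0421 for both). Frmd4b differed by 1.189 (adjusted p = 0.0421), with a higher Flt3L than wild-type mean in 33D1 cells and a ratio of means of 0.855 in DEC205 cells. Rtl8c differed by -1.55 (adjusted p = 0.0263), with ratios of 0.461 and 1.41. Only Olfm1 and Adam23 of these moved in the same direction in both subsets, and the number called fell to 1 without both mixed arrays.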

How the results depend on the processing

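The counts of genes that rose were steadier than those of genes that fell or differed within 1 subset. Under median centring 89 genes were lower and 78 fell in both subsets, 77 were called in 33D1 and 103 in DEC205 cells, 1 in the interaction, and 2 costimulatory genes were lower. With an offset of 200 the interaction called 2. With the filter on low signals it called 12, and the 33D1 cells 241. With all 21 arrays in the model 107 genes fell in both subsets, 95 were called in 33D1 cells, and 14 mitosis, 15 S phase and 1 costimulatory gene were called. Without the intensity trend 132 genes were lower, 57 called in 33D1, 107 in DEC205 and 2 in the interaction. Without both mixed arrays 99 were lower, 91 fell in both, 1 was called in the interaction and 3 costimulatory genes were lower. The causes were not tested. With single arrays left out, the main effect gave 302 to 426 higher and 114 to 195 lower genes, 281 to 394 rose and 98 to 167 fell in both subsets, 51 to 200 were called in 33D1, 85 to 269 in DEC205 and 1 to 13 in the interaction. The list counts ran from 20 to 34 for mitosis, 17 to 27 for S phase, 13 to 21 for interferon and 3 to 5 for costimulation.

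Only uncalled genes of Flt3 signalling changed sign: Mcl1 to 0.015 under quantile normalization and 0.007 under median centring, Grb2 to -0.019 under quantile normalization, and Cish to -0.059 and Pim3 to 0.105 without both mixed arrays. With single arrays left out, the differences ran from -0.053 to 0.027 for Grb2, -0.066 to 0.122 for Cish, -0.291 to 0.121 for Pim3, -0.216 to 0.139 for Socs1, each crossing 0. Of 72 called genes named, 54 kept their call without both mixed arrays and 55 with all 21 arrays.

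The main model did not pair arrays by replicate number. Deviations of same-numbered arrays correlated from -0.156 to 0.274 over 18 pairs, and 8 of 12 arrays correlated best with an array of their own number. Whether same-numbered arrays shared mice or a run was not tested. With a replicate block 448 genes were higher and 200 lower, 416 rose and 178 fell in both subsets, 169 were called in 33D1, 318 in DEC205 and 4 in the interaction.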

Other observations

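Some gene families outside the lists held several of the genes that moved in both subsets. They were picked after their values had been seen, so the counts describe these arrays and support nothing further. Over all genes 2.19% rose and 0.929% fell in both subsets. Of 8 measured condensin subunits, which compact chromosomes in mitosis, 6 rose in both subsets, among them Ncaph (difference 0.92 ± 0.12) and Ncapg (0.88 ± 0.16), and the median was 0.61. Of 6 measured Ifi200 genes, Ifi204, Ifi207 and Ifi213 rose, with a median of 0.75, and of 9 measured Schlafen genes Slfn1, Slfn5, Slfn8 and Slfn9 rose, with a median of 0.25. Of 43 measured kinesins 6 rose and 1, Kif9, fell.

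Vim, the intermediate filament vimentin, was abundant and rose in both subsets. Its signals were 7714, 6495 and 6206 in wild-type and 11931, 13140 and 17132 in Flt3L 33D1 cells, and 7783, 6144 and 9149 against 14546, 19488 and 18915 in DEC205 cells, with no overlap (difference 1.12 ± 0.12). Lgals1, galectin-1, rose 2.77-fold in 33D1 and 1.87-fold in DEC205 cells, and Anxa2, a membrane-binding annexin, 1.98-fold and 2.21-fold. Of the other galectins measured, Lgals9 also rose, and of 11 measured annexins Anxa1 and Anxa2 rose. Of 11 measured S100 genes 0 were called by limma. Over all genes 3.55% were called and 2.19% rose in both subsets.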
